A study of Danio rerio with 33 samples.

Results

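The miRNA profile of the adult zebrafish heart was compared with that of the eye, in 2 heart and 3 eye small RNA libraries. Every known mature miRNA with a count in at least 1 of these 5 libraries was included, which gave 233 of the 238 miRNAs counted anywhere in the 32 libraries of the series and of the 247 listed. The heart and eye libraries both came from adult wild type fishes of a Singapore strain bought from a local supplier, without treatment, and each library held RNA pooled from several fishes. The labels give neither sex nor age for these 2 tissues, and the study's text names male tissue for both. The third heart library, which the labels list, was not analysed here. The study states that it did not cluster with the other heart replicates.

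MicroRNAs are short RNAs cut from a hairpin precursor, whose 2 arms each can give a mature strand, named 5p and 3p. A mature strand guides a silencing complex to messenger RNAs. In vertebrates the heart and skeletal muscle carry a small set of muscle miRNAs, namely miR-1, miR-133 and miR-499, of which miR-499 lies in an intron of a myosin heavy chain gene. The retina carries the miR-183, miR-96 and miR-182 cluster of sensory cells together with the neuronal miRNAs miR-124 and miR-9, while miR-204 is a miRNA of the pigment epithelium and lens and miR-184 of the cornea and lens. In whole tissue, fewer cells of a type and less RNA per cell cannot be told apart.

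The heart libraries held 10136211 and 11732555 counts on known miRNAs, and the eye libraries 2822630, 1200985 and 1007911 counts, within a range of 277699 to 11732555 over all 32 libraries. Levels are given as known-miRNA counts scaled to a common total with the TMM method (CPM). A total of 3 counts corresponded to 0.238 and 0.214 CPM in the heart libraries and to 1.01, 2.45 and 2.89 CPM in the eye libraries, so the lowest levels were resolved more finely in heart. On the log2(CPM + 1) scale the 2 heart libraries correlated at 0.9967 across 238 miRNAs, and the 6 pairs of a heart with an eye library at 0.9735 to 0.9819. The pairs of eye libraries correlated at 0.9933, 0.9891 and 0.9843. These are descriptions across miRNAs, which are not independent replicates.

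The markers of the labelled tissues were read before the comparison. miR-499, the myosin-encoded muscle miRNA, had 1848 and 1600 CPM in the heart libraries, against 36.4, 39.1 and 46.3 CPM in the eye libraries and a mean of at most 178 CPM in each of the other 9 groups of embryo, brain, gut, liver, ovary and testis. Of the 3 heart muscle markers (miR-499, miR-1 and miR-133a-3p), 2 were higher in heart than in each of those 9 groups. The exception was miR-133a-3p, which was higher in embryo. For miR-1 the margin was narrow, at a mean of 268 CPM in heart against 232 CPM in embryo. The study's methods state that its embryo libraries pooled early embryonic stages with juveniles. Of the 7 eye markers (miR-96, miR-182-5p, miR-183, miR-124, miR-9-5p, miR-204 and miR-184), 6 were also higher in the heart libraries than in each of the 9 groups, the exception being miR-9-5p, which was higher in brain. The summed level of the 3 heart muscle markers was 8444 and 7448 CPM in the heart libraries, against 1111.5, 983 and 978 CPM in the eye libraries. The summed level of the 7 eye markers was 127410 and 146190 CPM in the heart libraries, against 197400, 194450 and 201530 CPM in the eye libraries. The heart libraries thus carried the heart muscle miRNAs and, beside them, the eye miRNAs, at a summed level below that of the eye. Over the 7 eye markers the heart mean ranged from 18.5% of the eye mean for miR-96 to 117% for miR-183. Expression of these miRNAs in heart tissue and RNA of eye origin in the heart libraries cannot be told apart here, and the part of either in the fold changes and counts of calls was not tested. The liver, gut and gonad markers miR-122, miR-192, miR-194a, miR-459-5p and miR-202-5p stayed at or below 9.67 CPM in all 5 libraries. Even so, miR-122 and miR-459-5p were higher in heart by the F-test described below (adjusted p = 0.0296 and 0.0276). The pancreas markers were present in all 5 libraries. miR-375 had 324 and 203 CPM in heart, against 367, 383 and 336 CPM in eye. miR-217 had 127 and 109 CPM in heart, against 151, 155 and 124 CPM in eye.

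Fewer miRNAs were called between heart and eye than between heart and any other group. edgeR's glmTreat, which tests whether a difference exceeds 2-fold, called 11 of 238 miRNAs (4.62%) at a Benjamini-Hochberg adjusted p of at most 0.05. Of these, 10 were higher in heart (4.20%) and 1 was lower (0.420%). The same test called between 108 miRNAs (45.4%, heart against testis) and 143 miRNAs (60.1%, heart against female liver) for heart against each of the 9 other groups. The median absolute log2 fold change was 0.44 for heart over eye and lay between 1.36 and 1.795 for heart over the other groups. These comparisons share the heart libraries, and the differences between them were not tested. Of the 233 miRNAs counted in heart or eye, 194 lay within 2-fold, as did 168 of the 191 miRNAs that averaged at least 10 CPM in either tissue.

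**Figure D1:**
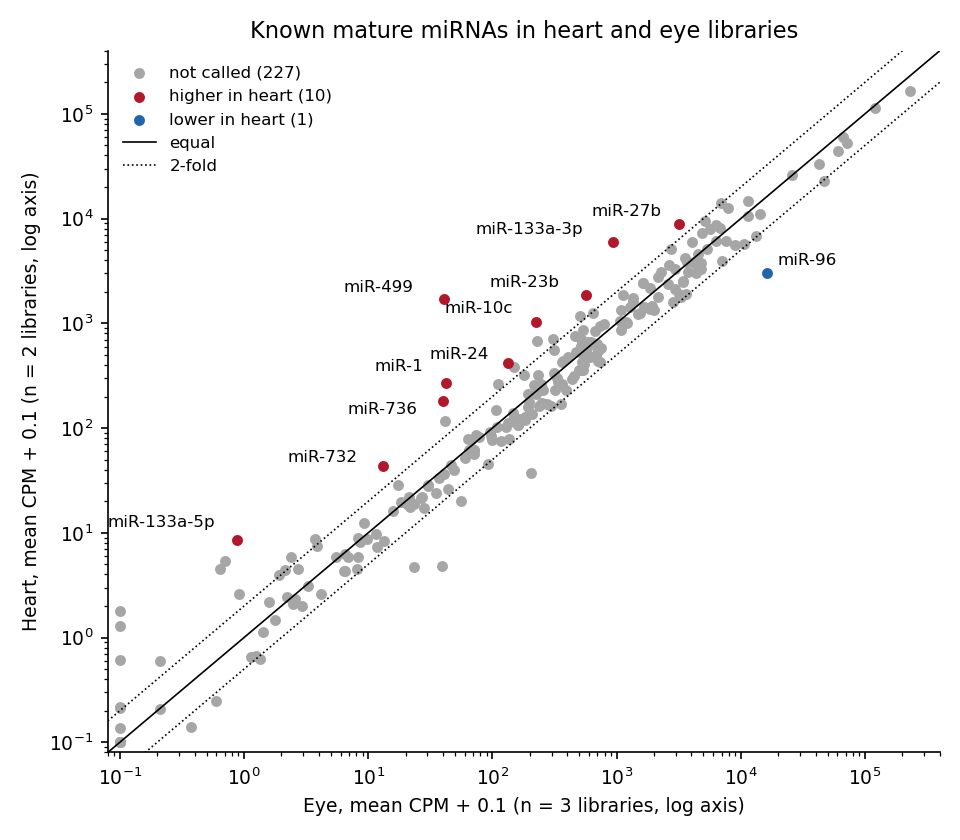
Mean level of each tested miRNA in heart (vertical axis, n = 2 libraries) against eye (horizontal axis, n = 3 libraries), both in CPM + 0.1 on log axes, with lines of equality and of a 2-fold difference. Most of the 238 miRNAs lie between the dotted lines, 10 called higher in heart lie above them and miR-96 lies below them.

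Whether a miRNA differed at all was asked with edgeR's quasi-likelihood F-test of no change, which called 63 miRNAs (26.5%), 40 of them higher in heart (16.8%) and 23 lower (9.66%). This split depends on the scaling. With library size alone in place of TMM the test called 64 higher and 11 lower, and with the size factors of DESeq2 it called 38 higher and 56 lower. The median log2 fold change of all miRNAs was −0.13 with TMM, 0.08 with library size alone and −0.23 with DESeq2 size factors, so small fold changes are best read against that shift. The values of the heart libraries lay wholly above or wholly below those of the eye libraries for 150 miRNAs (63.0%), above for 71 (29.8%) and below for 79 (33.2%).

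Among the miRNAs called by glmTreat, the largest fold changes were those of miR-499, miR-133a-5p, miR-133a-3p and miR-1, all on the muscle list. Outside that list, some uncalled miRNAs with few eye counts had fold changes as large, such as miR-122 (log2 fold change 2.83). Of the 9 heart and muscle miRNAs listed, 5 were higher in heart by glmTreat (4.20% of all miRNAs) and none was lower, and their median log2 fold change was 2.17, against −0.13 for all miRNAs. Their summed level was 9560 and 8341 CPM in the heart libraries, against 1617, 1457 and 1423 CPM in the eye libraries, a 5.97-fold higher mean. The list was chosen with earlier results of these data known, and the 5 include both arms of the miR-133a hairpin.

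miR-499 was higher in heart by a log2 fold change of 5.42 (SE 0.41, glmTreat adjusted p = 5.733e-10), or 42.9-fold, from the levels given above. Both heart libraries lay far above all 3 eye libraries. miR-1, a muscle miRNA that restrains the growth of heart muscle cells in mouse, had 267.9 and 268.3 CPM in heart, against 49.6, 48.9 and 27.0 CPM in eye. Its log2 fold change was 2.65 (SE 0.21, glmTreat adjusted p = 1.133e-07). The heart libraries were nearly equal in miR-1, and 1 of the eye libraries was lower than the other two.

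miR-133a-3p, which is made together with miR-1 from 1 of its loci, was the most abundant of the muscle miRNAs. It had 6328 and 5579 CPM in heart, against 1026, 895 and 905 CPM in eye, a log2 fold change of 2.66 (SE 0.33, glmTreat adjusted p = 1.316e-04). The opposite arm, miR-133a-5p, was at 9.44 and 7.48 CPM in heart, against 1.35, 0 and 0.965 CPM in eye. Its log2 fold change was 3.10 (SE 0.58, glmTreat adjusted p = 0.00535), and it lost its call with DESeq2 (adjusted p = 0.145). The eye value of this arm rests on a few counts, so its fold change is loosely set.

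miR-736, also on the muscle list, had 192 and 170 CPM in heart, against 42.8, 41.6 and 35.7 CPM in eye (log2 fold change 2.16, SE 0.33, glmTreat adjusted p = 0.00475). Neither tissue's libraries overlapped the other's. The remaining members did not pass the test. miR-133b-3p had 759 and 605 CPM in heart, against 243, 210 and 236 CPM in eye, a log2 fold change of 1.57 (SE 0.34), with a glmTreat adjusted p of 0.202 and an F-test adjusted p of 8.29e-04. miR-206, the miRNA of skeletal muscle, had 28.2 and 24.2 CPM in heart, against 42.8, 47.3 and 41.5 CPM in eye (log2 fold change −0.74, SE 0.35, F-test adjusted p = 0.115). miR-133c had 127 and 86.1 CPM in heart, against 175, 175 and 130 CPM in eye (log2 fold change −0.59, SE 0.34, F-test adjusted p = 0.202). Both of these lay lower in heart in every library pair, and neither passed the edgeR tests. miR-133b-5p was counted in heart alone, with 1 and 2 counts.

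In the RefSeq annotation of zebrafish (assembly GRCz12tu, used for names and neighbours only), 1 locus each of miR-1 and miR-133a lie within 10 kb of each other. There were 4.23 and 4.81 counts of miR-1 per 100 counts of miR-133a-3p in heart, against 4.83, 5.47 and 2.99 in eye. The ratios overlapped (exact permutation test, two-sided, p = 1), so a different balance of miR-1 and miR-133a-3p was not detectable in these libraries. Such a ratio does not depend on the scaling.

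**Figure D2:**
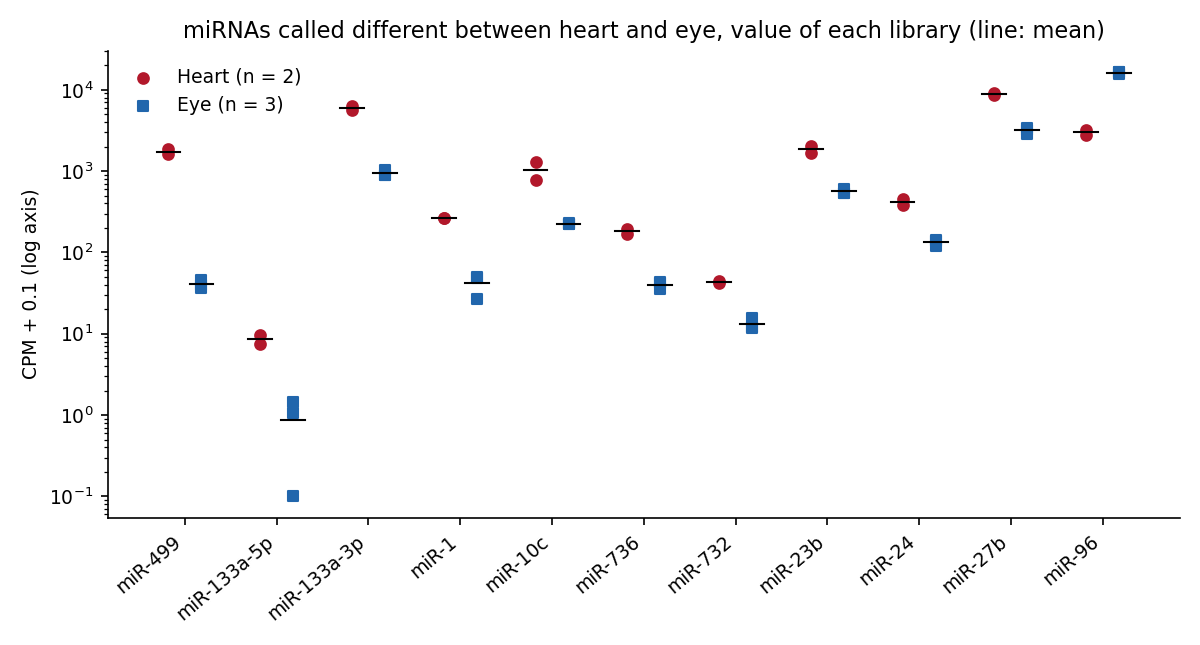
Level of each of the 11 called miRNAs in every library (CPM + 0.1, log axis), with heart libraries (red circles, n = 2) left of eye libraries (blue squares, n = 3) and a line at each mean. The heart points lie above the eye points for the first 10 miRNAs, from miR-499 to miR-27b, and below them for miR-96.

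Among the called miRNAs higher in heart, miR-10c had the largest difference outside the muscle list. This member of the miR-10 family, whose genes lie in the Hox clusters, had 786 and 1289 CPM in heart, against 222, 222 and 230 CPM in eye (log2 fold change 2.21, SE 0.28, glmTreat adjusted p = 5.296e-04). The 2 heart libraries differed from each other more than the 3 eye libraries did. In the other 9 groups miR-10c averaged between 11354 CPM in female brain and 113400 CPM in male gut, so heart and eye were both far below the rest of the series. No other of the 10 members of the miR-10 and miR-196 list was called. miR-10a-5p, for instance, had 6.90 and 10.5 CPM in heart, against 10.1, 13.1 and 5.79 CPM in eye.

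A second set of called miRNAs came from the miR-23, miR-27 and miR-24 clusters, which are expressed in the vascular endothelium of mammals. Of the 9 listed members, 3 were higher in heart by glmTreat (4.20% of all miRNAs) and 6 by the F-test (16.8% of all miRNAs). None was lower by either test, and the median log2 fold change was 0.97. The summed level was 24443 and 24401 CPM in heart, against 12369, 11885 and 10009 CPM in eye, or 2.14-fold higher.

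miR-27b had 8684 and 9105 CPM in heart, against 3416, 3230 and 2862 CPM in eye (log2 fold change 1.49, SE 0.14, glmTreat adjusted p = 0.0050). miR-23b had 2052 and 1671 CPM in heart, against 544, 608 and 537 CPM in eye (log2 fold change 1.72, SE 0.15, glmTreat adjusted p = 2.581e-04). miR-24 had 457 and 383 CPM in heart, against 120, 139 and 144 CPM in eye (log2 fold change 1.65, SE 0.19, glmTreat adjusted p = 0.0053). None of the 3 had overlapping groups.

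These 3 miRNAs have loci within 10 kb of one another in RefSeq. miR-23b has a further locus beside miR-24 and miR-27d, and miR-24 has 4 loci in all, so their mature counts sum over loci. The ratio of miR-23b to miR-27b was 23.6 and 18.4 counts per 100 in heart, against 15.9, 18.8 and 18.8 in eye (exact permutation test, two-sided, p = 0.4). The ratio of miR-24 to miR-27b was 5.26 and 4.21 per 100 in heart, against 3.51, 4.29 and 5.02 in eye (exact permutation p = 0.5). Both ratios overlapped between the tissues.

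The paralogs lay lower in fold change. miR-27d had 406 and 358 CPM in heart, against 170, 156 and 125 CPM in eye, a log2 fold change of 1.34 (SE 0.15) with an F-test adjusted p of 1.237e-07, and just missed glmTreat (adjusted p = 0.0808). miR-27c-3p, the most abundant member, had 9325 and 9784 CPM in heart, against 5561, 5223 and 4701 CPM in eye (log2 fold change 0.89, SE 0.15, F-test adjusted p = 5.957e-05). miR-23a had a log2 fold change of 0.97 (SE 0.19, F-test adjusted p = 2.253e-04), with no overlap. miR-27a, with 1439 and 1241 CPM in heart and 1339, 1259 and 674 CPM in eye, overlapped and did not pass (log2 fold change 0.29, SE 0.23). Close paralogs share most of their sequence, so the counting step may have moved reads between them.

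miR-732 was the least firm of the called miRNAs. It had 44.4 and 41.6 CPM in heart, against 12.1, 15.5 and 11.6 CPM in eye (log2 fold change 1.73, SE 0.28, glmTreat adjusted p = 0.0409). Its groups did not overlap, but the call was lost in 8 of 15 alternative fits, namely with DESeq2 (adjusted p = 0.270), with DESeq2 size factors in edgeR (0.0756), with a filter on low counts (0.0511), with the replicate number as a block (0.0728), and without heart replicate 1 (adjusted p = 0.129), heart replicate 2 (0.0738), eye replicate 1 (0.0689) or eye replicate 3 (0.131). Of the miRNAs just short of the glmTreat threshold, miR-30a had 120 and 113 CPM in heart, against 44.2, 43.2 and 36.7 CPM in eye (log2 fold change 1.49, SE 0.20, adjusted p = 0.0525). In 7 of 15 alternative fits miR-30a was called higher in heart, for instance with library size alone (glmTreat adjusted p = 0.0022). miR-27d was called higher in 5 of the 15. The F-test of no change is among these fits for both.

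Only miR-96 was called lower in heart. miR-96, a sensory miRNA whose mutation causes hearing loss in human and mouse, had 2797 and 3245 CPM in heart, against 16510, 15839 and 16551 CPM in eye (log2 fold change −2.43, SE 0.26, glmTreat adjusted p = 2.368e-05). Heart held 18.5% of the eye mean, and the groups were far apart.

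The other members of the cluster did not follow miR-96. miR-182-5p had 54233 and 66672 CPM in heart, against 68144, 65455 and 65422 CPM in eye (log2 fold change −0.13, SE 0.26, F-test adjusted p = 0.720). The direction of miR-182-5p turned with library size alone (log2 fold change 0.10). miR-183 had 2052 and 2319 CPM in heart, against 2021, 1836 and 1746 CPM in eye (log2 fold change 0.23, SE 0.25, F-test adjusted p = 0.518). The opposite arm miR-182-3p had 42.9 and 37.0 CPM in heart, against 44.2, 55.5 and 47.3 CPM in eye (log2 fold change −0.29, SE 0.23). The libraries of miR-182-5p overlapped, whereas the heart libraries lay just above those of eye for miR-183.

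The miR-96, miR-182 and miR-183 hairpins lie within 10 kb in RefSeq, so the balance within the cluster was read per library. There were 5.16 and 4.87 counts of miR-96 per 100 counts of miR-182-5p in heart, against 24.2, 24.2 and 25.3 in eye, a difference of −2.29 in the log2 ratio. The difference stayed between −2.34 and −2.25 when any 1 of the 5 libraries was left out. Against miR-183, miR-96 stood at 136 and 140 per 100 in heart, against 817, 862 and 948 in eye. Both ratios were wholly separate between the tissues. The exact permutation test gave p = 0.1 for each, two-sided, which is the smallest value that 2 against 3 libraries allow (adjusted p = 0.2 over 6 ratios). miR-183 stood at 3.78 and 3.48 per 100 counts of miR-182-5p in heart, against 2.97, 2.81 and 2.67 in eye (exact permutation p = 0.1, adjusted p = 0.2).

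The ratio of miR-96 to miR-182-5p was also read in the other groups that had at least 50 counts of miR-182-5p in each library. It averaged 5.01 ± 0.205 per 100 in heart (SD, n = 2) and 24.6 ± 0.627 in eye (SD, n = 3), beside 8.23 ± 0.711 in male brain, 9.01 ± 0.913 in male gut, 16.7 ± 8.80 in male liver, 20.6 ± 2.87 in female gut, 20.8 ± 3.78 in female brain, 22.8 ± 1.04 in embryo and 93.6 ± 17.0 in testis (SD, n = 3 each). The 2 heart libraries lay below every library of these groups. The differences of heart from these other groups were not tested.

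Next, the miRNAs enriched in the eye over the other tissues were followed into the heart. An eye-enriched miRNA was one that averaged at least 10 CPM in eye and at least 10 times its mean in each group other than heart. The rule gave 7 miRNAs: miR-96, miR-182-5p, miR-183, miR-184, miR-190b, miR-726 and miR-729. Together they took 8.74 and 10.1% of the counts in the heart libraries, against 10.99, 10.8 and 10.6% in the eye libraries. The heart mean was 72.8% of the eye mean at the median of the 7, with a range of 18.5% for miR-96 to 117% for miR-183. The rule set thresholds on the eye mean alone, so the choice itself favours a heart mean below that of eye. In heart the 7 miRNAs stood between 4.99 times (miR-96) and 43.2 times (miR-183) above the highest of the other 9 groups.

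miR-190b had 6370 and 7235 CPM in heart, against 11339, 15546 and 13146 CPM in eye (log2 fold change −0.97, SE 0.29). It passed the F-test (adjusted p = 0.0164) and not glmTreat. miR-726 had 2273 and 2839 CPM in heart, against 3186, 3547 and 3484 CPM in eye (log2 fold change −0.41, SE 0.21, F-test adjusted p = 0.138). miR-729 had 169 and 181 CPM in heart, against 250, 269 and 228 CPM in eye (log2 fold change −0.51, SE 0.29, F-test adjusted p = 0.202). All 3 were lower in each heart library than in each eye library, and all 3 were far above the remaining tissues, where miR-726 averaged at most 85.4 CPM and miR-729 at most 11.2 CPM.

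miR-184, of cornea and lens, had 2354 and 1903 CPM in heart, against 3170, 3324 and 2283 CPM in eye, so that its groups overlapped (log2 fold change −0.46, SE 0.25). miR-204, of pigment epithelium and lens, had 43630 and 45581 CPM in heart, against 63004, 56940 and 61672 CPM in eye (log2 fold change −0.44, SE 0.23, F-test adjusted p = 0.159). The highest mean of miR-204 in the other 9 groups was 9502 CPM, in embryo.

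The same rule was turned to the heart, taking miRNAs with at least 10 CPM and at least 10 times the mean of each group other than eye. It gave 5 miRNAs, namely miR-182-5p, miR-183, miR-190b, miR-726 and miR-729, every one of which was also eye-enriched. Their eye mean was 133% of the heart mean at the median. With a 5-fold rule miR-499 joined them, at 9.67 times the highest of the other 9 groups, with an eye level at 2.36% of heart. miR-1 and miR-133a-3p did not meet either rule, since the embryo libraries, which also held juveniles, averaged 232 and 7406 CPM.

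**Figure D3:**
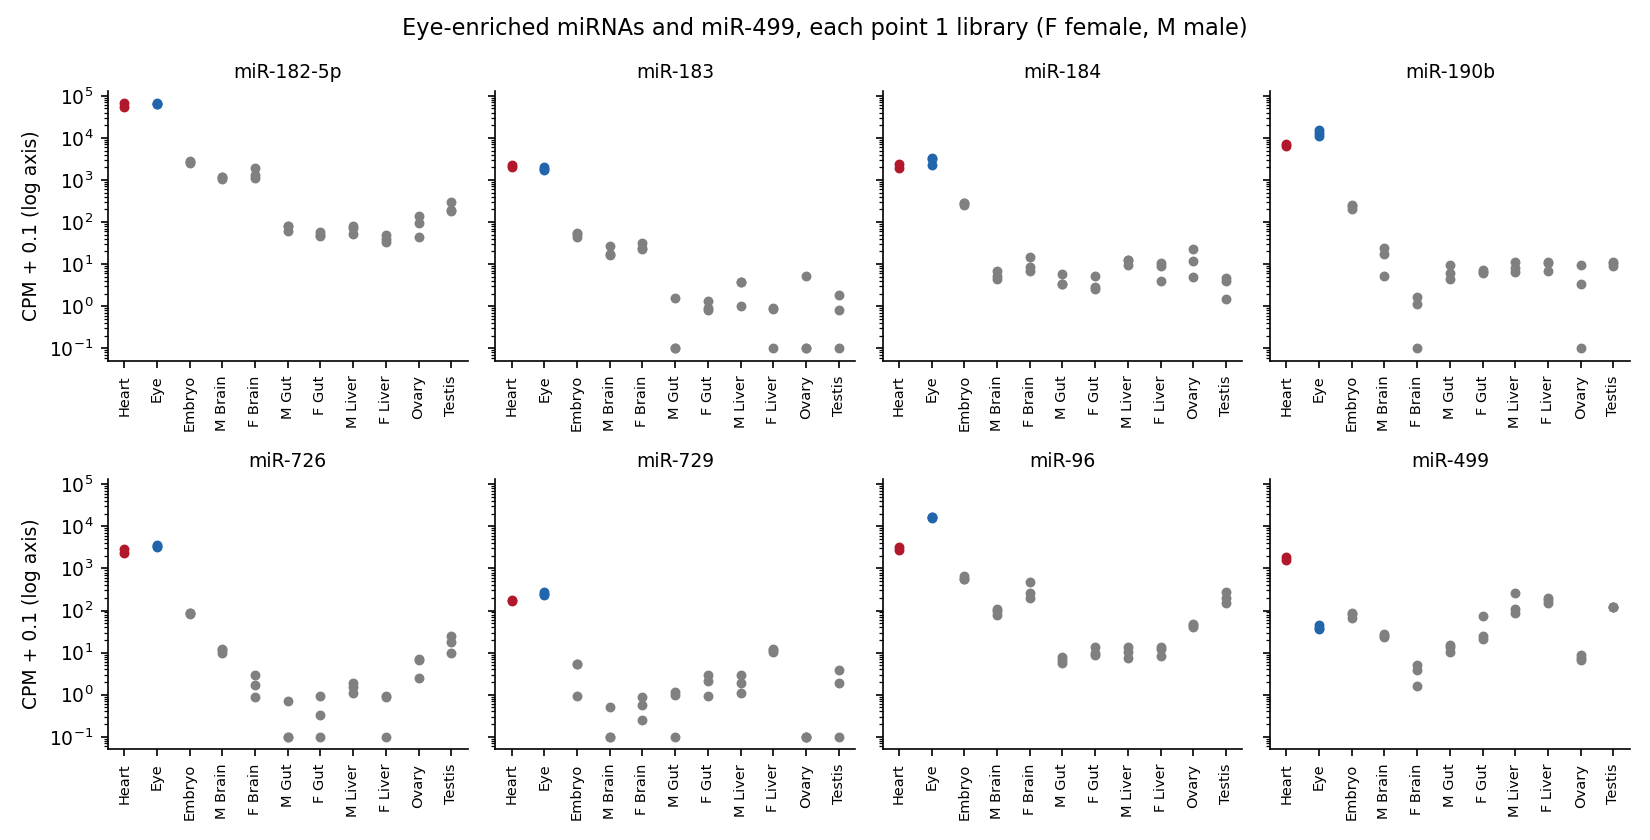
Level of the 7 eye-enriched miRNAs and of miR-499 in every library of the 11 groups (CPM + 0.1, log axis), with heart in red, eye in blue and the other groups in grey. The heart points of miR-182-5p and miR-183 sit at the height of the eye points, those of miR-96 sit below them at 18.5% of the eye mean, and miR-499 is high in heart alone.

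The neuronal miRNAs lay lower in heart as a group without passing the 2-fold test. Of 18 listed, none was called by glmTreat, 4 were lower and 1 was higher in heart by the F-test (9.66% and 16.8% of all miRNAs), and the median log2 fold change was −0.58. The summed level was 32350 and 37991 CPM in heart, against 60968, 69664 and 70344 CPM in eye. miR-9-5p, of neural progenitors and neurons, had 20802 and 24450 CPM in heart, against 41931, 47293 and 50273 CPM in eye (log2 fold change −1.04, SE 0.18, F-test adjusted p = 7.896e-05). miR-124, of differentiated neurons, had 1544 and 2024 CPM in heart, against 2624, 3768 and 3584 CPM in eye (log2 fold change −0.90, SE 0.30, F-test adjusted p = 0.0296). miR-129-5p and miR-138 were the other 2 lower members, at log2 fold changes of −0.81 and −0.67. miR-128, another neuronal miRNA, had 1057 and 1046 CPM in heart, against 966, 1114 and 1142 CPM in eye, which overlapped. miR-218a was the member higher in heart, at 153 and 142 CPM, against 94.4, 120 and 106 CPM in eye (F-test adjusted p = 0.0496).

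The vascular miRNAs lay higher in heart. All 4 strands of miR-126, the endothelial miRNA carried by an intron of egfl7, were higher by the F-test (16.8% of all miRNAs), and none by glmTreat. miR-126a-3p had 5882 and 6060 CPM in heart, against 4314, 3925 and 3996 CPM in eye (log2 fold change 0.55, SE 0.12, F-test adjusted p = 0.00101). The 5p strands of miR-126a and miR-126b had nearly equal values in every library (2489 and 2487 CPM in heart replicate 1, for instance), so they are best read as 1 measurement. The smooth muscle miRNAs gave 2 of 2 higher by the F-test (16.8% of all miRNAs). miR-145 had 5141 and 5137 CPM in heart, against 3520, 2347 and 2336 CPM in eye (log2 fold change 0.91, SE 0.27, F-test adjusted p = 0.0140), and miR-143 had a log2 fold change of 0.57 (SE 0.20, F-test adjusted p = 0.0363). Every member of both lists lay wholly higher in heart (29.8% of all miRNAs, and 63.0% did not overlap in either direction).

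The blood miRNAs of the erythroid list overlapped between the tissues. The erythroid miR-451 had 9962 and 11425 CPM in heart, against 12589, 12817 and 9033 CPM in eye (log2 fold change −0.10, SE 0.26), and miR-144 had a log2 fold change of 0.02 (SE 0.26). Of the 8 leukocyte miRNAs, 1 was lower by the F-test, a share near the 9.66% of all miRNAs. This was miR-146a, at 279 and 181 CPM in heart, against 356, 478 and 335 CPM in eye. Of the same 8, 5 lay wholly lower in heart (33.2% of all miRNAs), as did their summed level. The median of the leukocyte list turned sign under another scaling. The epithelial miR-200 family also had 1 of 6 lower by the F-test beside the same 9.66%, miR-429b (log2 fold change −1.42, SE 0.46, F-test adjusted p = 0.0267). Its median log2 fold change was −0.74, below the −0.58 of the neuronal list, and kept its sign under the other scalings. Heart lay wholly below eye for 4 of the 6 (33.2% of all miRNAs), while the summed level of the list overlapped. The 4 epidermal miRNAs of the miR-203 and miR-205 list had a median log2 fold change of −0.51 with none called by either test. That median kept its sign under the other scalings. All 4 lay wholly lower in heart (33.2% of all miRNAs), as did their summed level.

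Among the broadly expressed families, 5 of 6 members of the miR-30 family were higher in heart by the F-test (16.8% of all miRNAs) and none was lower, at a median log2 fold change of 0.56. The summed level was 27637 and 28544 CPM in heart, against 19276, 19382 and 20348 CPM in eye. miR-26a had 13424 and 15025 CPM in heart, against 7456, 6786 and 6549 CPM in eye (log2 fold change 1.04, SE 0.17, F-test adjusted p = 2.131e-05). miR-454a, miR-454b and miR-221 had log2 fold changes of 1.23, 1.20 and 1.21, each higher by the F-test and short of glmTreat. In the miR-181 family 2 of 4 were lower in heart by the F-test (9.66% of all miRNAs), with miR-181a-3p at 3532 and 4305 CPM in heart, against 6491, 6974 and 7895 CPM in eye (log2 fold change −0.86, SE 0.16, F-test adjusted p = 1.922e-04). The let-7 family was split, with 2 of 10 higher (let-7c and let-7e) and 2 lower (let-7i and let-7j) by the F-test, shares that lie near the 16.8% and above the 9.66% of all miRNAs.

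The medians of 10 of the 26 lists turned sign under another scaling, among them those of the sensory cluster, the erythroid, leukocyte, let-7 and miR-17-92 lists. Those of the muscle, miR-23/24/27, endothelial, smooth muscle, miR-30, neuronal and miR-181 lists did not. The summed levels of 20 lists did not overlap between heart and eye, with 12 higher and 8 lower in heart, beside 63.0% of single miRNAs that did not overlap. With library size alone 17 lists did not overlap.

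**Figure D4:**
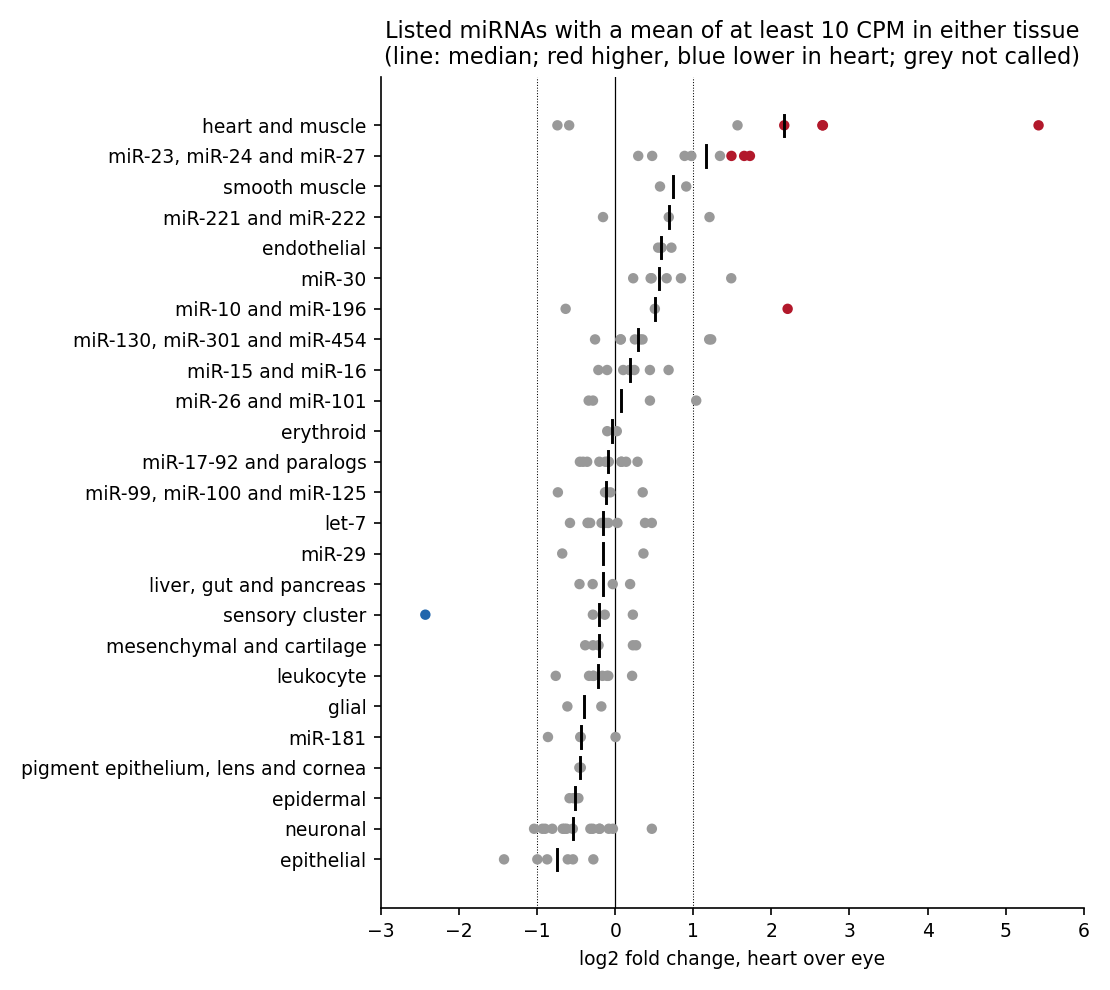
log2 fold change of heart over eye for the listed miRNAs with a mean of at least 10 CPM in either tissue, by list, with each list's median as a black line. The heart and muscle list stands highest (median 2.17), followed by the miR-23, miR-24 and miR-27 list (median 1.16 over the 8 members shown), and the neuronal list lies near the bottom (median −0.54 over the 15 members shown).

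The most abundant miRNAs were largely the same in the heart and the eye libraries. Of the 10 highest in each, 8 were shared, and the 10 took 66.2 and 66.7% of the counts of the heart libraries, against 72.4, 70.5 and 72.3% of those of the eye libraries for their own 10. miR-21, a miRNA found in most tissues, led in both, with 20.1 and 19.9% of the counts in heart, against 24.8, 23.2 and 23.4% in eye (log2 fold change −0.49, SE 0.16, F-test adjusted p = 0.0276). let-7a came second, at 14.4 and 13.1% in heart, against 11.7, 13.04 and 12.4% in eye. With TMM scaling the let-7a levels overlapped (log2 fold change −0.09, SE 0.14, F-test adjusted p = 0.656). miR-182-5p, miR-181b, miR-204, miR-92a, miR-181a-5p and miR-9-5p were the other shared members. Of these, miR-182-5p, miR-204 and miR-9-5p are among the eye markers. For those markers, expression in heart tissue and RNA of eye origin in the heart libraries cannot be told apart. The heart alone had let-7c and miR-26a among its 10, and the eye alone had miR-96 and let-7b.

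The balance between the 2 arms of a hairpin was measured for 27 of the 34 hairpins with both arms listed, those with at least 20 counts over both arms in each library. In 8 of them the heart libraries lay wholly on 1 side of the eye libraries. With 2 against 3 libraries the exact permutation test cannot go below p = 0.1, and the smallest adjusted p was 0.45, so no hairpin passed. For miR-133b and miR-27c the lesser arm had no count in the eye libraries, which leaves their ratio to the pseudocount and the depth. Among the 16 hairpins with at least 10 counts of the lesser arm in every library, 6 did not overlap.

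The largest of these was miR-181a, in which the 3p arm made up 11.3 and 15.1% of the counts of the hairpin in heart, against 18.6, 22.5 and 23.8% in eye. The log2 ratio of 5p to 3p was 0.87 higher in heart. For miR-210, induced by low oxygen in mammals, the 3p arm made up 86.8 and 84.7% in heart, against 89.3, 90.8 and 90.8% in eye, a difference of 0.63 in the log2 ratio. miR-30e and miR-9 went the other way, with log2 ratios 0.61 and 0.49 lower in heart. The 3p arm of miR-30e made up 7.83 and 6.47% in heart, against 5.23, 3.91 and 5.27% in eye. The remaining 2 were miR-2188 and miR-142a, with differences of 0.48 and 0.12. The median absolute difference over the 16 hairpins was 0.18.

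**Figure D5:**
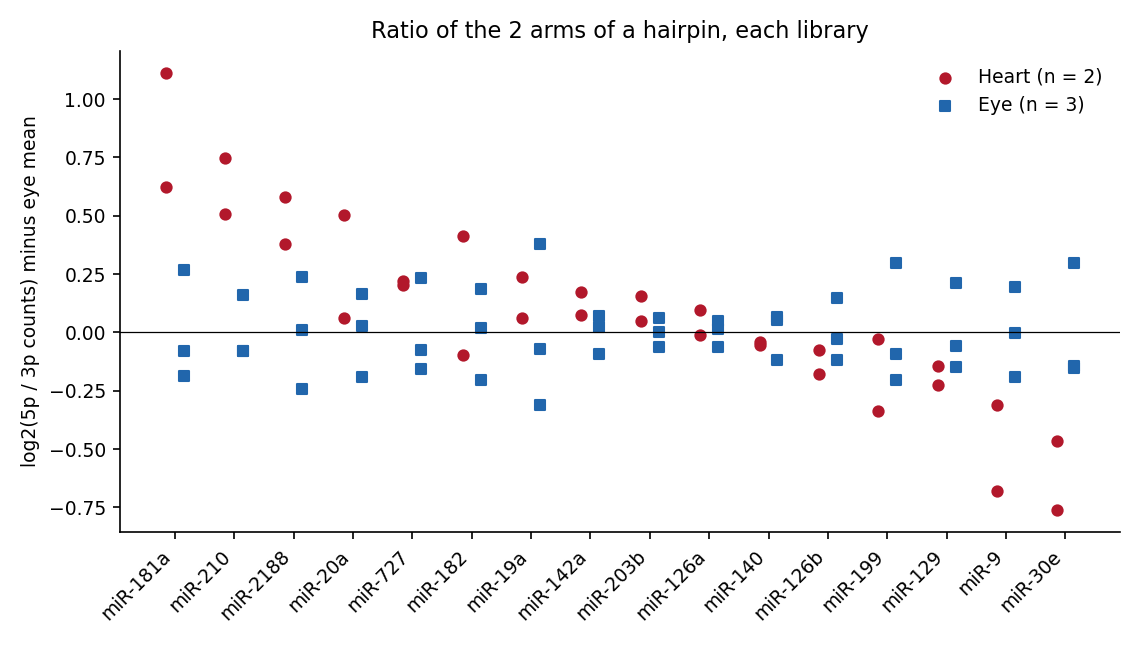
log2 ratio of 5p to 3p counts of each hairpin with at least 10 counts of the lesser arm, relative to the eye mean, for heart libraries (red circles, n = 2) and eye libraries (blue squares, n = 3). miR-181a stands highest in heart and miR-30e lowest, while most hairpins overlap.

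Some miRNAs differed as much between libraries of 1 tissue as between the tissues. They were chosen after their values were seen. miR-34b had 7.06 and 2.28 CPM in heart, against 3.71, 1.63 and 112 CPM in eye, so its log2 fold change of −2.90 rested on eye replicate 3 and was 0.48 without it. miR-34c had 6.50 and 2.71 CPM in heart, against 1.69, 0 and 68.5 CPM in eye, with the same library high and a log2 fold change of 1.803 without it. miR-735 had 52.0 and 21.5 CPM in heart, against 90.01, 484 and 39.6 CPM in eye, with eye replicate 2 high. The groups of all 3 overlapped. Even so, miR-34b and miR-735 were among the 23 miRNAs lower in heart by the F-test (adjusted p = 0.0164 and 0.0203). Both were also among the 6 lower with the 2-fold threshold applied after that test.

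At the low end, 6 miRNAs were counted in heart and not in eye, and none in eye and not in heart. miR-430a, a member of the embryonic family that clears maternal messenger RNAs, had 32 and 12 counts in the heart libraries and no count in the eye libraries (F-test adjusted p = 0.0504, glmTreat adjusted p = 0.237). miR-430c had 19 and 12 counts in heart and none in eye (F-test adjusted p = 0.272). Neither passed the F-test or glmTreat. With the likelihood ratio test in edgeR as an alternative fit, miR-430a was called higher in heart (log2 fold change 5.21, adjusted p = 0.0188). The other 4 (miR-10d-5p, miR-133b-5p, miR-27c-5p and miR-723-5p) had at most 12 counts in a heart library. The eye libraries were shallower than the heart libraries. Pooled over libraries, the heart level of miR-430a and miR-430c was 2.88 and 2.03 times the level of 3 counts in eye. For the other 4 it was below that level, so a difference was not detectable at this depth. A further 5 of the 238 miRNAs had no count in either tissue.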

How the data were processed

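Small RNA libraries were sequenced on an Illumina instrument. Per the labels and the study's methods the authors trimmed adapters (cutadapt), kept reads of at least 18 nt and counted known mature miRNAs of miRBase release 19 with the quantifier of miRDeep2. CASAVA 1.8.2 and edgeR are named in the submitters' processing notes. The deposited table of raw counts was used as deposited. A table normalised by the authors was not used.

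Raw counts of all 32 libraries in 11 groups were fitted with edgeR 4.0.16 (TMM, quasi-likelihood fit, R 4.3.3), 1 coefficient per group, so that all groups share the estimate of spread. Heart over eye was tested with glmTreat against an absolute log2 fold change of 1 and with the F-test of no change, both adjusted (Benjamini-Hochberg) over 238 miRNAs with a count in any library, at 0.05. SE is the log2 fold change divided by the square root of the F statistic. Arm and cluster ratios used log2 counts per library (arms with a pseudocount of 0.5) and exact permutation tests (scipy 1.17.1). The fits were tried on simulated counts with known changes in heart. Those counts were drawn from the same profile for all groups, so the trial does not cover the scaling between unlike tissues.

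Depth was 1007911 to 11732555 counts per heart or eye library. Replicates differed beyond sampling noise, and each was counted as 1 sample. Each replicate pooled other fishes, so p-values measure the spread between pools. PCR reads are not independent molecules. Named were the 15 largest called changes per direction with no overlap and at least 10 CPM, the 10 most abundant miRNAs per tissue, listed and enriched miRNAs, and hairpins whose ratios did not overlap. The members and lists were chosen with earlier results of these data known. Alternatives were DESeq2 1.42.0, other scalings, filters, thresholds and each library left out. Of 33 labelled samples, the third heart sample was left out, since no column of the table was matched to it.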

Additional observations from a re-analysis of the deposited data

How the results depend on the processing

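Of the 11 called miRNAs, 9 kept their call and direction in every fit tried; miR-732 lost its call in 8 of 15 fits and miR-133a-5p in 1, and none turned. The count higher in heart (10) was 40 by the F-test of no change, 19 by that test with the 2-fold threshold applied afterwards and 16 with library size alone; it was 8 with DESeq2 and 9 to 11 with each library left out. The count lower (1) was 23 and 6 by those F-tests and 1 to 3 with each library left out, where miR-34b (without eye replicate 1 or 2), miR-34c (without eye replicate 1) and miR-735 (without eye replicate 3) joined miR-96; a group left with 1 heart library is taken to vary like the others. With the replicate number as a block 9 were higher and 1 lower, and miR-732 lost its call (adjusted p = 0.0728); only 2 numbers are shared and the labels name nothing that a number marks, so a pairing could not be judged. Chosen after seeing the data, total reads per library as the scale gave 13 higher and 1 lower, and F-tests of no change gave 64 higher and 11 lower with library size alone and 56 lower with DESeq2 size factors. The eye-enriched median moved to 85.7% with library size alone (67.4 to 74.9% with each library left out). Hairpins without overlap numbered 9 to 16 with each library left out, since fewer libraries overlap less often. Of 227 uncalled miRNAs, 85 turned sign in at least 1 fit, 36 of them with library size alone. Those named here were let-7a (0.153 with library size alone, 0.221 with total reads, 0.011 with heart and eye alone), miR-182-5p (0.102 with library size alone, 0.182 with total reads, −0.291 to 0.017 with each library left out), miR-135b (0.071) and miR-182-3p (0.036) with total reads, miR-181a-5p (−0.097 with DESeq2 size factors and with DESeq2, −0.035 with a filter on low counts, −0.015 with the block, −0.112 to 0.169 with each library left out), miR-34b (−3.798 to 0.477 with each library left out, turning without eye replicate 3), miR-34c (−2.746 to 1.803, likewise turning without eye replicate 3), miR-27a (−0.051 to 0.549), miR-10a-5p (0.047 with library size alone, 0.206 with total reads, −0.514 to 0.064 with each library left out), miR-128 (0.07 with heart and eye alone, 0.212 with library size alone, 0.274 with total reads, −0.07 to 0.025), miR-144 (−0.084 with DESeq2, −0.083 with its size factors, −0.01 with the filter, −0.139 with the block, −0.339 to 0.326) and miR-451 (0.135 with library size alone, 0.246 with total reads, −0.336 to 0.054). The cause was not tested. Depth limited eye values below 1.01 to 2.89 CPM.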
